A study of Homo sapiens with 2 samples.

Results

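The 4 HOX gene clusters were examined as sites of DNA replication initiation in U2OS, an osteosarcoma cell line. The clusters were defined by position alone, on the human genome build hg19: HOXA on chromosome 7 from 27.13 to 27.25 Mb, HOXB on chromosome 17 from 46.60 to 46.81 Mb, HOXC on chromosome 12 from 54.33 to 54.45 Mb and HOXD on chromosome 2 from 176.95 to 177.06 Mb. Every nascent strand interval that shared at least 1 bp with a window was a member, which gave 176 members of 161869 intervals in all. HOXA held 40 of them, HOXB 56, HOXC 44 and HOXD 36. The 500 kb on either side of each window served as its flanks and together held 318 intervals.

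The data come from 2 libraries of wild-type U2OS cells that form 1 group. The cells were synchronised with a double thymidine block and collected 2 hours after release. Nascent strand sequencing isolates short daughter strands that still carry their RNA primer, which an exonuclease cannot enter, and so marks places where replication has begun. The deposited files hold 1 list of broad peaks and 6 lists of intervals. Each interval list is 1 class of replication timing (very early, early, mid early, mid late, late and very late). The broad peaks are cut to bases that both libraries share. The intervals reach beyond these bases, which covered a median of 60.0% of an interval over the whole series. Widths, distances and coverage below are those of whole intervals. The number of reads behind a peak is unknown. Whether the libraries stem from different cultures is not stated, and no control without digestion was analysed here. Because both libraries enter as 1 set, no value below has a spread between replicates and none was tested. The 95% intervals that follow are exact (Poisson for counts, binomial for shares and for the ratio of 2 counts, order statistics for medians). They cover counting error only and treat neighbouring intervals as independent, which they are not.

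HOX genes encode homeodomain transcription factors that give cells their position along the body axis during development. The clusters are copies of 1 ancestral cluster, and within each the genes lie in the order of the body regions they pattern. In differentiated cells Polycomb and Trithorax group proteins are known to keep parts of a cluster silent or active. In general, active and gene-rich chromatin replicates early in S phase and silent chromatin late, and replication often starts near CpG-rich promoters.

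RefSeq lists 39 protein-coding HOX genes: 11 in HOXA, 10 in HOXB, 9 in HOXC and 9 in HOXD. By rising position on the chromosome, HOXA ends with HOXA13 and HOXB runs from HOXB1 to HOXB13, while HOXC starts with HOXC13 and ends with HOXC4, and HOXD starts with HOXD13 and ends with HOXD1. The coding genes next to the clusters are SKAP2 and EVX1 at HOXA, SKAP1 and TTLL6 at HOXB, CALCOCO1 and SMUG1 at HOXC, and EVX2 and MTX2 at HOXD. Gene order was taken from RefSeq on GRCh38.p14. No gene could be placed on the hg19 intervals, so no interval is assigned to a promoter or gene body and the labels of the windows were not checked against gene positions.

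The kinship of the clusters is visible in the microRNA genes they carry, shown here because copies of 1 sequence lie in clusters of different timing class (below). The 22-base mature sequences are from RefSeq on GRCh38.p14, written 5′ to 3′, with the seed (bases 2 to 8) in capitals.
MIR196A1 (HOXB), hsa-miR-196a-5p: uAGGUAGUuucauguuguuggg
MIR196A2 (HOXC), hsa-miR-196a-5p: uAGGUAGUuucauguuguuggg
MIR196B (HOXA), hsa-miR-196b-5p: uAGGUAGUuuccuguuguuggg
MIR10A (HOXB), hsa-miR-10a-3p: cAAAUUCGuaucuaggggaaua
MIR10B (HOXD), hsa-miR-10b-3p: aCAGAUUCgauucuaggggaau
The copies in HOXB and HOXC are identical, and that in HOXA differs from them by A12C, counted from the 5′ end of miR-196a, outside the shared seed. MIR10A and MIR10B, in HOXB and HOXD, form a second family. Only their 3p arms are shown, and the seeds of these arms differ. The opposite arms were not compared, so whether the copies of this family share a seed there was not tested.

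The 4 clusters fell into different replication timing classes. All 44 HOXC intervals were very early, a class that held 14.3% of all intervals in the series. HOXB was mostly early, with 42 early intervals (25.9% of all intervals were early) and 14 very early ones. All 40 HOXA intervals were mid early, against 29.8% in the series. HOXD was the latest, with 22 mid late intervals (22.3% in the series) and 14 late ones (5.58% in the series). The 3 earlier classes thus made up 100% of HOXA (exact 95% interval 91.2% to 100%), HOXB (93.6% to 100%) and HOXC (92.0% to 100%) and none of HOXD, where 0 of 36 allows up to 9.74%. Neighbouring intervals share their timing over long runs, so the intervals of a cluster are not separate observations of timing.

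The timing of a cluster was not always that of its surroundings. HOXA lay in a mid early run of 52 intervals over 166 kb, which began 3.32 kb before the window and ended 42.7 kb after it. The class before this run was mid late and the class after it early. The HOXA flanks held 29 mid late, 15 mid early, 3 early and 2 very early intervals, so 40.8% of them were in the 3 earlier classes (27.0% to 55.8%). HOXB was arranged differently, with a run of 42 early intervals over 107 kb wholly inside the window and very early runs on both sides. The HOXB flanks held 78 very early and 26 early intervals. Inside HOXB the early and very early intervals overlapped in width, with medians of 792 bp (598 to 1231, n = 42) and 868 bp (324 to 1234, n = 14), and in fold, with medians of 5.06 (4.44 to 6.38) and 4.60 (2.95 to 5.41). HOXC lay inside a very early run of 63 intervals over 291 kb with early intervals at both ends, and its flanks held 92 very early, 58 early and 3 mid early intervals.

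HOXD held a late core inside mid late surroundings. Its 14 late intervals followed each other without interruption over 49.4 kb, from position 176966793 to 177016238, and the intervals before and after were mid late. All 12 intervals of the HOXD flanks were mid late as well. The nearest late interval outside the window lay 8.80 Mb below it and 2.60 Mb above it. The late and mid late intervals of HOXD overlapped in size and strength. Median widths were 731.5 bp (314 to 1082, n = 14) and 596.5 bp (334 to 1102, n = 22), and median folds were 4.53 (3.83 to 7.97) and 4.44 (3.76 to 5.94).

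**Figure D1:**
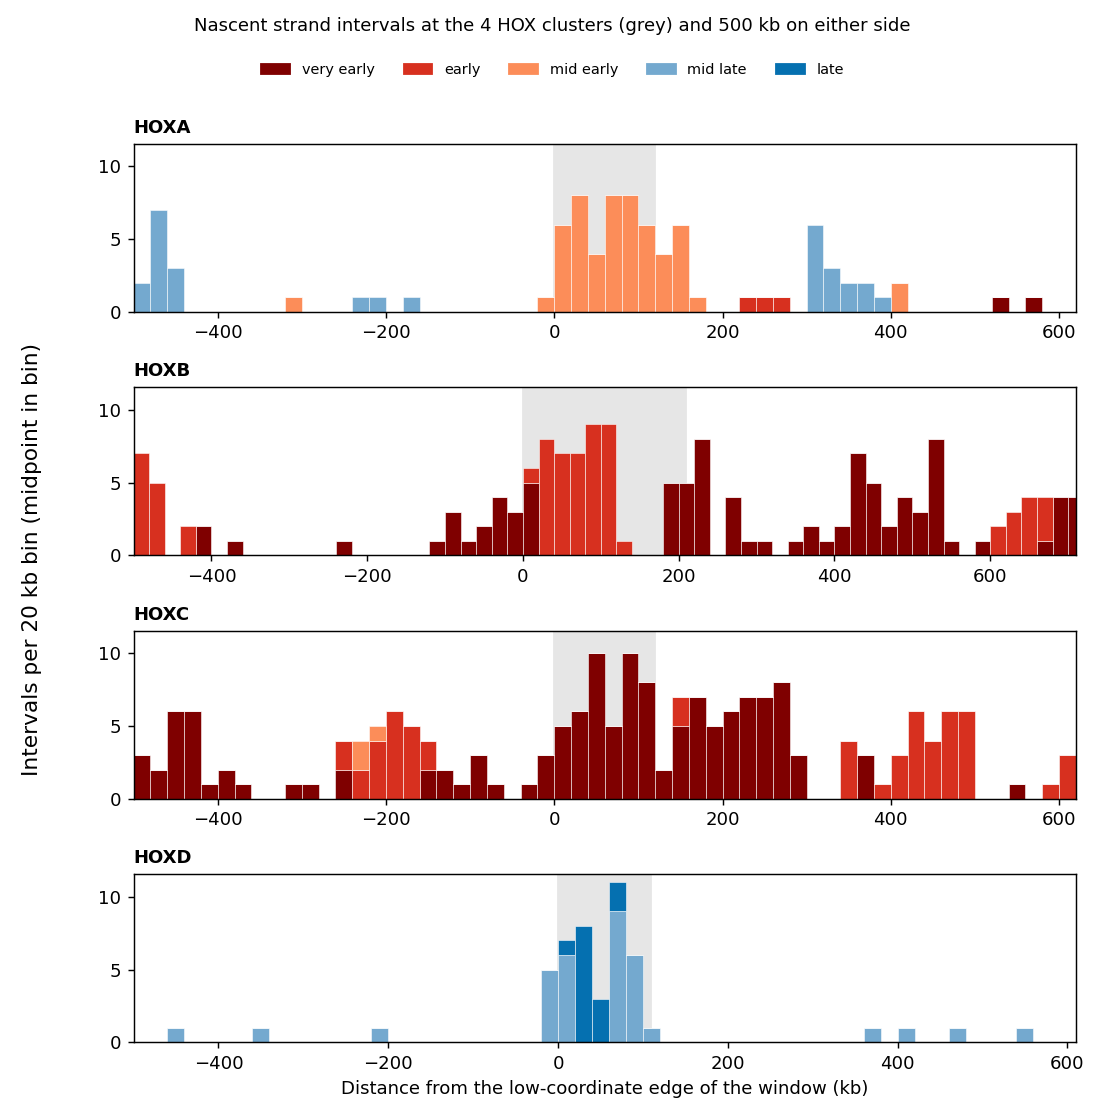
Number of intervals in 20 kb bins (y axis, by midpoint) against distance in kb from the low-coordinate edge of each HOX window (x axis), with 500 kb on either side. Colours are timing classes and the grey band is the window. HOXA is mid early, HOXB early between very early stretches, HOXC very early, and HOXD mid late with a late core and almost empty flanks.

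All clusters were dense in intervals, and their densities differed by less than counting error when every interval was counted. HOXC had 36.7 intervals per 100 kb (26.6 to 49.2), HOXA 33.3 (23.8 to 45.4), HOXD 32.7 (22.9 to 45.3) and HOXB 26.7 (20.1 to 34.6). Of the 6 pairs of clusters, none had a ratio of densities whose interval left out 1. HOXB and HOXC were farthest apart, with HOXB at 0.727 of the HOXC density (0.481 to 1.11). HOXB had the lowest density and the longest empty stretch, 57.1 kb from 46725358 to 46782502. Outside this gap it had 36.6 intervals per 100 kb, between HOXA at 35.6 and HOXC at 38.2 when each window was taken without its own longest gap (HOXD 37.0). With only the intervals whose replicate 1 peak had a −log10 q of at least 5, the densities moved apart, to 28.3 per 100 kb in HOXC (34 intervals), 23.3 in HOXA (28), 14.3 in HOXB (30) and 12.7 in HOXD (14). HOXB then had 0.504 of the HOXC density (0.298 to 0.849), and HOXC was 2.23-fold denser than HOXD (1.16 to 4.49), while the intervals of the other 4 pairs held 1.

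The genome around them is much sparser. Over 29522 tiles of 100 kb on chromosomes 1 to 22 and X, the median was 2 intervals, the 95th percentile 25 and the 99th percentile 33. Only 0.332% of tiles held as many intervals per 100 kb as HOXC, 0.877% as many as HOXA, 1.10% as many as HOXD and 4.17% as many as HOXB. Among tiles whose most frequent class was that of the cluster, these shares were 0.190% for HOXC (5 of 2630 very early tiles), 1.99% for HOXA (101 of 5076 mid early tiles), 1.56% for HOXD (83 of 5329 mid late tiles) and 8.25% for HOXB (340 of 4121 early tiles). Tiles include sequence gaps such as centromeres, and shorter windows than the clusters vary more by counting alone.

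The clusters differed in how far their density exceeded that of their own flanks. HOXD was 27.3-fold denser than its flanks (13.9 to 57.6), with 36 intervals in 110 kb against 12 in 1000 kb. HOXA was 6.80-fold denser (4.37 to 10.5), with 49 intervals in its flanks. HOXB and HOXC stood in richer surroundings and were 2.56-fold (1.82 to 3.58) and 2.40-fold (1.67 to 3.37) denser than flanks that held 104 and 153 intervals. With both sides pooled, the intervals of the HOXD and HOXA ratios overlap neither those of HOXB and HOXC nor each other. Those of HOXB and HOXC overlap. Against the low-coordinate side alone, HOXA (5.43 to 18.4) overlaps HOXD (9.35 to 50.9) and HOXB (2.65 to 6.65). Against the high-coordinate side alone, the separation held. With each window taken without its longest gap, HOXA (4.66 to 11.2) overlaps HOXB (2.50 to 4.92), and the other separations held. The flank densities spread from 1.20 per 100 kb at HOXD over 4.90 at HOXA and 10.4 at HOXB to 15.3 at HOXC, in the same order as the timing classes of the clusters, though not of the flanks, from latest to earliest.

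At HOXA, HOXB and HOXC the high-coordinate side held more intervals than the low-coordinate side. HOXA had 17 intervals in the 500 kb below it, on the SKAP2 side in gene order, and 32 above it, on the EVX1 side. Of the 17, 12 lay 400 to 500 kb from the window. HOXB had 32 below and 72 above, and HOXC 62 below and 91 above. Per 100 kb, the exact intervals of the 2 sides overlap at HOXA (1.98 to 5.44 below and 4.38 to 9.03 above). They also overlap at HOXC (9.51 to 15.9 and 14.7 to 22.3) but not at HOXB (4.38 to 9.03 and 11.3 to 18.1). HOXD had 8 below and 4 above, too few to order. Of the 8 below HOXD, 5 lay within the nearest 100 kb. The 200 kb above HOXD held none, and the next interval lay 263 kb beyond the last one in the cluster.

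**Figure D2:**
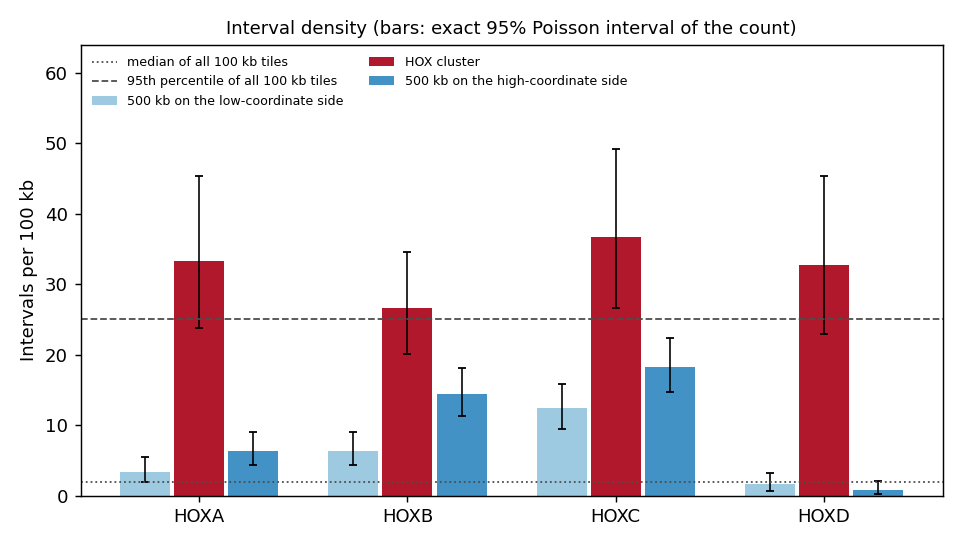
Intervals per 100 kb (y axis) in each HOX window and in the 500 kb on its low-coordinate and high-coordinate side (bars, with exact 95% Poisson intervals). Dotted and dashed lines give the median (2) and the 95th percentile (25) of all 100 kb tiles. The 4 clusters reach 26.7 to 36.7 while their flanks range from 0.8 to 18.2.

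The borders of the dense stretches did not always follow the windows. Joining neighbours up to 20 kb apart, a distance chosen after the data were examined, gave a stretch of 41 intervals over 122 kb at HOXD, with 188 kb free of intervals before it and 263 kb after it. At HOXA the stretch held 52 intervals over 166 kb, after 160 kb and before 70.3 kb without any. HOXC was part of a longer stretch of 99 intervals over 302 kb. HOXB was broken by its gap into stretches of 56 intervals over 176 kb and 18 over 57.4 kb. The 5 stretches held from 31.3 to 33.6 intervals per 100 kb. The joining rule leaves longer gaps out of a stretch by construction, and stretches elsewhere in the genome were not compared.

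Within the windows, neighbouring intervals lay about 1 kb apart. The median distance was 769 bp in HOXC (617 to 1068, n = 43), 978 bp in HOXD (656 to 2418, n = 35), 1218 bp in HOXB (733 to 1599, n = 55) and 1243 bp in HOXA (696 to 2233, n = 39). In the flanks it was 1651 bp at HOXC, 3479.5 bp at HOXB, 4844 bp at HOXA and 54635.5 bp at HOXD, and over the whole series 2812 bp. The longest distance inside a window was 4.75 kb in HOXC, 7.50 kb in HOXA, 12.8 kb in HOXD and the 57.1 kb of HOXB. The HOXB gap separated 47 intervals of the low-coordinate part from 9 of the high-coordinate part. In RefSeq gene order HOXB13, at the high-coordinate end, is separated from HOXB9 by PRAC1, PRAC2 and MIR196A1, but the gap was not placed against these genes.

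Intervals covered 50.5% of the HOXC window, 36.3% of HOXA, 26.8% of HOXD and 26.5% of HOXB. The flanks were covered to 16.9%, 2.92%, 0.589% and 9.54% in the same order. HOXC was thus about evenly split between sequence inside and outside intervals, and 4 of 2630 very early tiles (0.152%) were covered as much. Coverage was uneven along the clusters. In HOXD the low-coordinate part (each window was cut into 3 equal parts), the HOXD13 end by gene order, was covered to 41.6% with 14 intervals, the middle part to 17.1% with 10 and the last part, the HOXD1 end, to 21.7% with 12. In HOXC the middle part was the fullest at 58.7%, with 45.8% and 47.1% on either side. In HOXA the first part was covered to 28.8% and the others to 41.1% and 39.0%. HOXB was fullest at its HOXB1 end, with 39.4% and 25 intervals, then 28.7% with 22, and 11.4% with 9 in the last part, which holds most of the gap.

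HOX intervals were wider than those of their flanks, most clearly at HOXA. The median width was 884 bp in HOXA (594 to 1123) against 339 bp in its flanks (273 to 459), a difference of 545 bp. It was 829 bp in HOXB (688 to 1053) against 590 bp (399 to 895) and 1027 bp in HOXC (713 to 1712) against 777 bp (618 to 903). In HOXD it was 703 bp (464 to 829) against 446 bp (344 to 699). The intervals of cluster and flank overlap at HOXB, HOXC and HOXD and do not at HOXA. Over all intervals of the series the median was 558 bp. Against the genome-wide median of the class that prevails in it, each cluster was also wider: 529 bp for very early (HOXC), 587 bp for early (HOXB), 602 bp for mid early, which falls just inside the HOXA interval, and 537 bp for mid late, inside that of HOXD.

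The widest members lay in HOXC. It held 3 of the 7 members of at least 3 kb, with 2 in HOXA, 2 in HOXB and none in HOXD. The HOXC share of 6.82% (1.43% to 18.7%) was close to the 6.54% of its own flanks, where the widest interval spanned 6158 bp. In all, 3.98% of members reached this width (1.61% to 8.02%), against 3.94% of all intervals, so very wide intervals were about as frequent as elsewhere. The widest member spanned 5151 bp, from 54391209 to 54396359 on chromosome 12, and was also the most enriched of HOXC. The widest of HOXA lay from 27194812 to 27198476 (3665 bp), that of HOXB from 46672382 to 46675832 (3451 bp) and that of HOXD from 176969376 to 176972157 (2782 bp, in the late core).

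**Figure D3:**
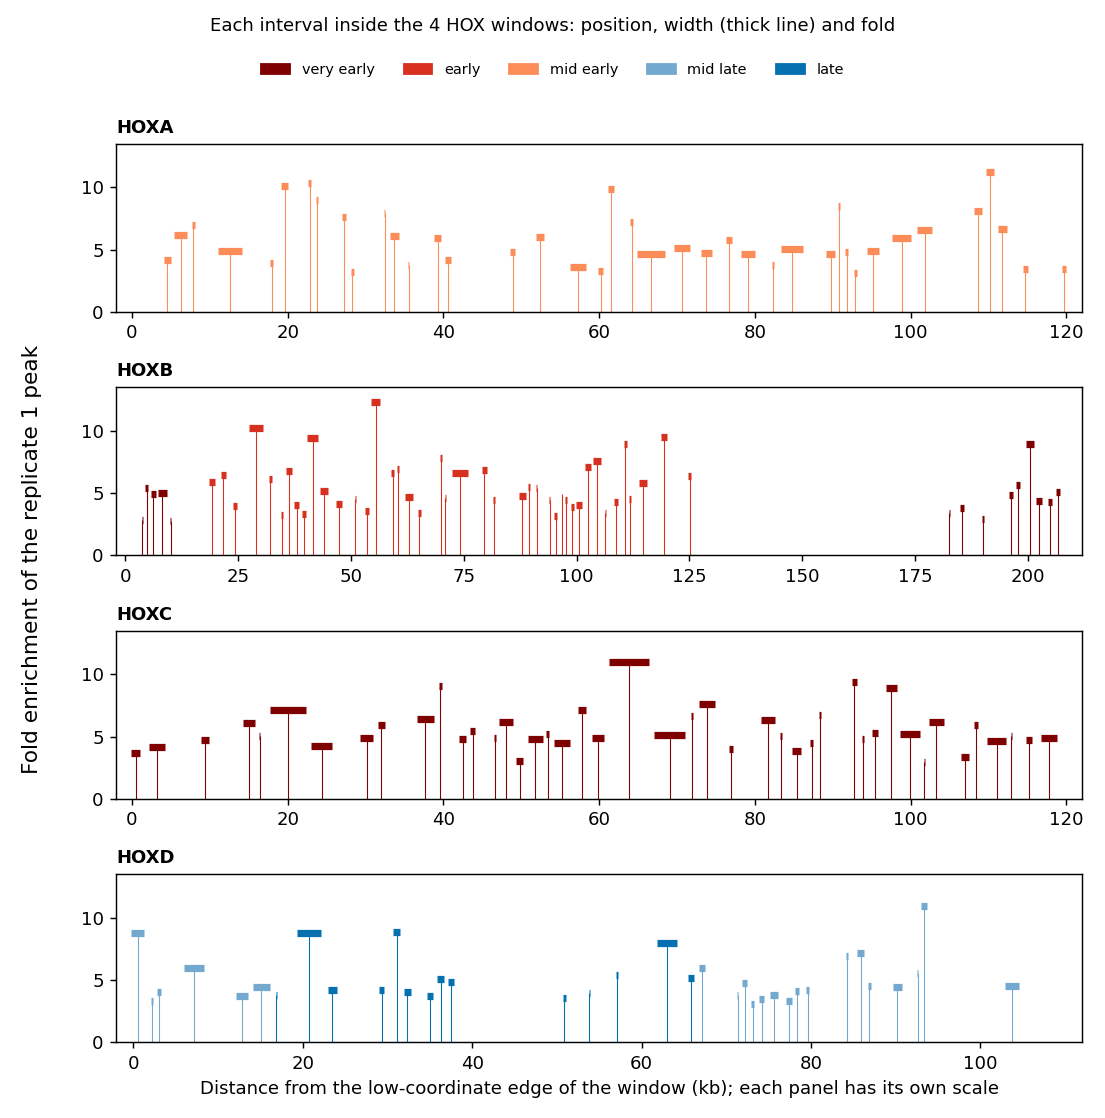
Each interval inside the 4 windows, placed by its distance in kb from the low-coordinate edge (x axis) and the fold enrichment of its replicate 1 peak (y axis). The thick line is the width of the interval and colours are timing classes. Folds run from 2.78 to 12.3, with wide intervals throughout HOXC and a 57.1 kb gap in HOXB.

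The folds of HOX intervals lay near those of the series. Fold enrichment is the authors' value for the replicate 1 peak that shares most bases with the interval. The median fold was 5.08 in HOXC (4.80 to 5.90), 5.07 in HOXA (4.67 to 6.15), 4.90 in HOXB (4.42 to 5.50) and 4.44 in HOXD (4.0 to 5.20), beside 4.73 in the whole series. In the flanks it was 5.47 at HOXC, 5.13 at HOXB, 4.29 at HOXA (3.76 to 4.98) and 3.80 at HOXD (3.45 to 5.09). The median was therefore below that of the flanks at HOXB and HOXC, with differences of −0.23 and −0.39, and above it at HOXA and HOXD, with differences of 0.78 and 0.64. At HOXD the sign depended on the side, since the cluster was at −0.12 against the 8 intervals below it and at 1.11 against the 4 above it. The intervals of cluster and flank overlap at every cluster.

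A fold of at least 10 was reached by 7 of 176 members, or 3.98% (1.61% to 8.02%), against 7.16% of all intervals and 6.92% of the intervals in the flanks (22 of 318). Both of these shares lie inside the members' interval. HOXA held 3 of the 7 (7.5% of its intervals), HOXB 2, HOXC 1 and HOXD 1. The highest fold was lower in the cluster than in the flanks at HOXB (12.3 against 16.2) and HOXC (10.98 against 24.4), and higher at HOXA (11.3 against 10.8) and HOXD (10.96 against 5.84). A fold under 4 was found in 22.7% of members and 31.3% of all intervals, with HOXC at 13.6%, HOXA at 22.5%, HOXB at 23.2% and HOXD at 33.3%.

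The strongest interval of all 4 clusters lay in HOXB from 46654388 to 46656523, early, 2136 bp wide and 12.3-fold enriched. It was followed in HOXB by 10.2-fold from 46627419 to 46630570 and 9.53-fold from 46718685 to 46719972. The HOXA peaks were 11.3-fold from 27239655 to 27240745, near the HOXA13 end of the window by gene order, and 10.4-fold and 10.1-fold from 27152672 to 27153061 and from 27149133 to 27150081, near the other end. In HOXC the widest member reached 11.0-fold, and 2 narrower ones had 9.41-fold from 54422416 to 54423107 and 9.04-fold from 54369389 to 54369772. HOXD reached 11.0-fold in a mid late interval of 614 bp from 177043046 to 177043659, then 8.85-fold and 8.81-fold in the late core, from 176980666 to 176981494 and from 176969376 to 176972157.

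Of the 8 outermost members, 5 had a fold below the median of their cluster, close to the even split that a median sets for all members. The first and last intervals had folds of 4.13 and 3.42 in HOXA, 2.80 and 5.11 in HOXB, 3.64 and 4.84 in HOXC, and 8.79 and 4.52 in HOXD. Only the first HOXD interval, from 176949789 to 176951230, was among the 4 strongest of its cluster. Wider intervals had higher folds in HOXB (Pearson r = 0.55, Spearman rho = 0.48, n = 56) and less so in HOXD (0.40 and 0.38, n = 36). In HOXA (−0.15 and 0.00, n = 40) and by rank in HOXC (0.30 and 0.09, n = 44) they did not. These correlations describe intervals that share libraries and neighbours, and over all intervals they were 0.24 and 0.42.

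**Figure D4:**
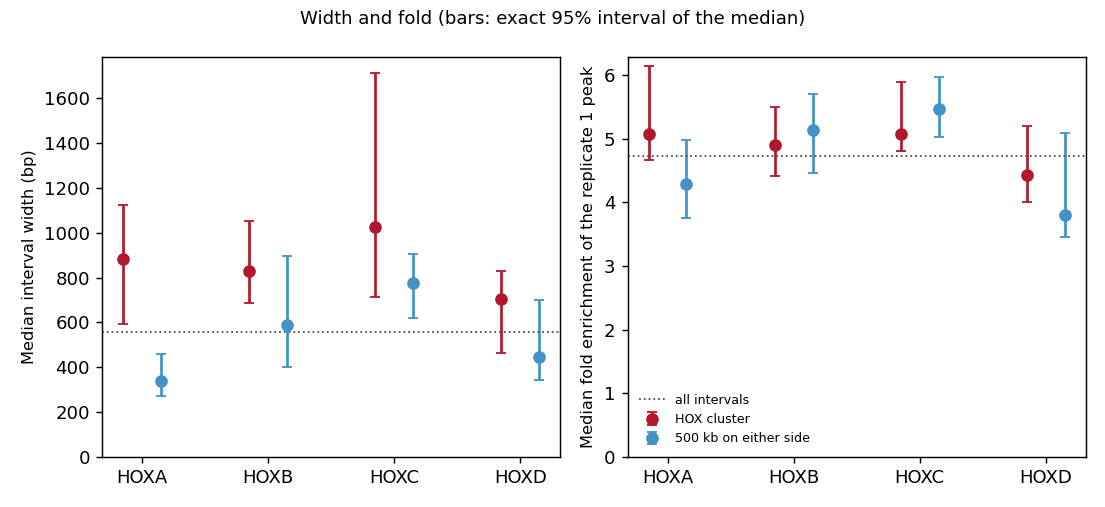
Median interval width in bp (left panel) and median fold of the replicate 1 peak (right panel) in each HOX cluster and its flanks, with exact 95% intervals of the median. The dotted line is the median of all intervals (558 bp and 4.73-fold). Cluster medians of width lie above the flanks in all 4, while fold is above them at HOXA and HOXD and below them at HOXB and HOXC.

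Peaks of replicate 1 were found again in replicate 2 more often at HOXA, HOXC and HOXD than over the whole list. Replicate 1 peaks are numbered along the genome, so missing numbers count peaks that the shared list lacks, if numbering was consecutive. HOXC lacked 3 of 47 numbers, a retention of 93.6% (82.5% to 98.7%), HOXD 3 of 39 (92.3%, 79.1% to 98.4%), HOXA 6 of 46 (87.0%, 73.7% to 95.1%) and HOXB 17 of 73 (76.7%, 65.4% to 85.8%). Over the whole list retention was 71.2%, which lies below the intervals of HOXA, HOXC and HOXD and inside that of HOXB. The flanks gave 77.6% at HOXC (71.2% to 83.2%), 61.9% at HOXD (38.4% to 81.9%), 71.0% at HOXA (58.8% to 81.3%) and 68.4% at HOXB (60.4% to 75.7%). Cluster was above flank in all 4, but the intervals overlap in each.

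Peak strength is known only for the peaks that were found again, since the missing ones have no value in the list. The median −log10 q of replicate 1 was 5.78 in HOXC (5.41 to 7.94) against 6.64 in its flanks (5.68 to 7.94). It was 5.52 in HOXB (4.33 to 6.88) against 6.13 (4.49 to 7.61). In HOXA it was 7.58 (5.42 to 9.73) against 4.06 (3.11 to 5.95), and in HOXD 4.44 (3.40 to 5.86) against 3.08 (2.47 to 5.55). The cluster median was thus lower at HOXC and HOXB and higher at HOXA and HOXD, but the intervals overlap at every cluster. Over all intervals the median was 5.21. The part of peak strength in retention was not tested, nor was that of interval width, which was greater in the clusters than over the series. Counting all replicate 1 numbers, listed or not, the clusters held 46, 73, 47 and 39 peaks from HOXA to HOXD and were 5.56-fold, 2.29-fold, 1.95-fold and 16.9-fold denser than their flanks. The order of the clusters was the same, but this is no independent check. Most of the numbers counted are the listed peaks themselves: 40 of 46 in HOXA, 56 of 73 in HOXB, 44 of 47 in HOXC and 36 of 39 in HOXD. The others rest on consecutive numbering.

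**Figure D5:**
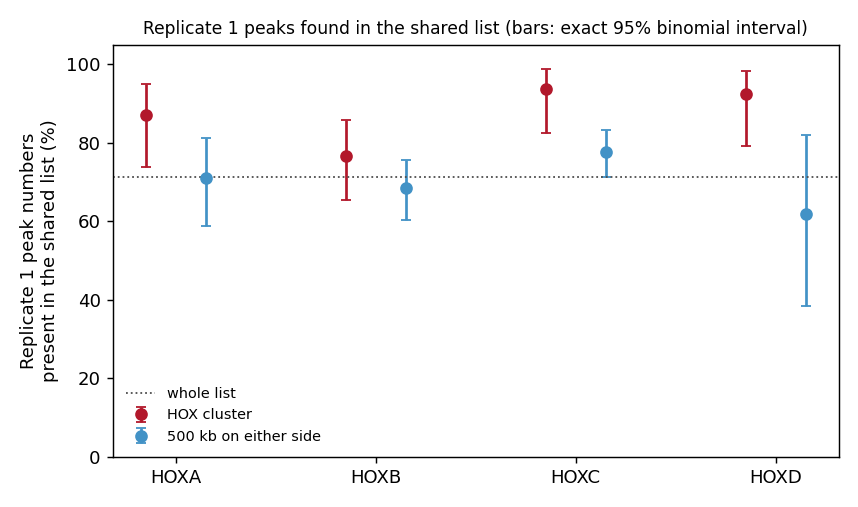
Share of replicate 1 peak numbers present in the list shared by both libraries (y axis, %) in each HOX cluster and its flanks, with exact 95% binomial intervals. The dotted line is the whole list (71.2%). HOXC (93.6%) and HOXD (92.3%) are highest and HOXB (76.7%) is closest to its flanks.

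Although most replicate 1 peaks were found again, replicate 2 often met only parts of them. In HOXC 18 of 44 intervals (40.9%, 26.3% to 56.8%) were met by 2 or more shared pieces, in HOXA 13 of 40 (32.5%), in HOXB 17 of 56 (30.4%) and in HOXD 9 of 36 (25%). Over all clusters this was 32.4% (25.5% to 39.8%), against 15.4% of all intervals and 19.5% in the flanks. By cluster, the flanks had 25.5% at HOXC (18.8% to 33.2%), 10.2% at HOXA, 16.3% at HOXB and 8.33% at HOXD. The intervals of cluster and flank overlap at every cluster. Wide intervals have more room for several pieces, and no comparison at like width was made. Peaks of both libraries covered a median of 62.0% of an interval in HOXA (42.8% to 69.3%), 58.4% in HOXC, 52.5% in HOXB and 44.9% in HOXD (36.0% to 55.0%), beside 60.0% in the series. The HOXD interval lies below the series value.

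Base composition could be read only for the 20 of 39 HOX genes with a RefSeq promoter sequence (GRCh38.p14, 300 bases around the start). Their median GC content was 58.8%, close to 58.3% over 27305 genes. Their median number of CpG dinucleotides was higher, 23 per promoter (quartiles 15 and 27.5) against 14 (4 and 27), though the quartile ranges overlap. The 9 HOXA promoters had a median of 23 and the 8 HOXD promoters 24.5, so the mid early and the mid late to late cluster did not stand apart in this measure. HOXB and HOXC had 1 and 2 promoters in the table, too few to compare. These held 11 CpG dinucleotides (HOXB1) and 15 each (HOXC4 and HOXC5). The GC content of the intervals themselves and the copy number of these regions in U2OS, a line with many chromosome changes, were not analysed here.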

How the data were processed

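Nascent strand DNA of 2 U2OS libraries was processed by the submitters with BWA and MACS2 on hg19, per the submitters' processing notes; versions, parameters and any control library are not stated there. The broad peak list deposited by the authors gives a fold (ratio) and a −log10 q for each whole peak of replicate 1, cut to bases shared with replicate 2, and a score that was not used. The score deposited by the authors in the 6 timing lists is the constant 1000. How timing classes were assigned is not stated. Depth is unknown, so precision rests on the number of intervals.

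Each named interval was counted once, as the span of its lines (21763 names stood on 2 lines), and took the fold of the replicate 1 peak sharing most bases with it. Intervals overlapping a window by 1 bp were members, and flanks were 500 kb on either side. Tiles of 100 kb ran from the first to the last interval of each chromosome, with overlaps counted. The functions were tested on simulated data. The windows and measures were chosen with earlier results of these data known. Named intervals were the 3 highest folds, the widest, and the first and last of each cluster; the thresholds of 10-fold and 3 kb, the dense stretches and the retention measure were added with values in view. Alternatives are listed in the closing section. Intervals came from scipy 1.17.1 and tables from pandas 2.3.3 (Python 3.11.15); figures were drawn with matplotlib 3.10.9.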

Additional observations from a re-analysis of the deposited data

How the results depend on the processing

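Of 148 values under 12 alternative settings, 8 left the range of 1.5 times the reported count or the 95% interval of the reported value. Of the other 140, 70 were identical to the reported value, many by construction: merging within 100 bp joined no members, and each cluster lay wholly on 1 side of the split into 3 earlier and 3 later classes. No density fell below that of its flanks. The densities over the flanks ranged from 5.56 to 10.6 at HOXA, 1.84 to 3.52 at HOXB, 1.93 to 3.04 at HOXC and 16.9 to 39.0 at HOXD. These ranges include flanks of 250 kb and 1 Mb and, chosen after the data were examined, windows without their longest gap and all replicate 1 peak numbers. Widening the windows by 20 kb, the setting that could change the shares of the 3 earlier classes, left them as they were. With a −log10 q of at least 5, HOXB held 30 and HOXD 14 intervals, the HOXA density was 10.6-fold that of its flanks, the HOXB median width was 1057.5 bp, and the median folds were 6.42 in HOXB and 6.44 in HOXD. This setting removes weak peaks by construction. Intervals covered to at least 50% by shared pieces had a median fold of 5.69 in HOXB, and the cause was not tested. Counting every line gave 88 intervals in HOXC, where each name stands on 2 lines. No paired analysis was possible because the 2 libraries form 1 group and were deposited as 1 intersected set, which also prevents leaving out a replicate.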
